A study of Mus musculus with 28 samples.

Results

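Macrophages grown from bone marrow of wild-type mice and exposed to interleukin-10 (IL-10) were compared by whether they had taken up dying regulatory T cells. The comparison used 8 of the 28 libraries of the study: 4 of macrophages sorted as having engulfed apoptotic regulatory T cells (Treg-phagocytic) and 4 of macrophages sorted as having engulfed none (non-phagocytic). All 8 had received 50 ng/mL IL-10 for 48 h before they met apoptotic T cells that had been killed with ATP or NAD+ and stained with a fluorescent antibody against CD4. The labels do not say which T cells the non-phagocytic macrophages had been offered. Beside these stood 4 libraries of IL-10 macrophages that had engulfed conventional CD4 T cells (Tconv-phagocytic), 8 of macrophages given 50 ng/mL interferon-γ (IFN-γ) for 48 h and sorted as Treg-phagocytic or non-phagocytic, and 4 of unpolarized macrophages (M0) whose labels give no uptake status. Libraries carry the dye and number of their titles (Ax647-1, Ax647-2, BV421-1, BV421-2), and the dye in the library names is the other one for every Treg-phagocytic library, so the dyes were pooled. The labels do not state that the 4 libraries of a group came from separate animals or cultures, and the p-values then measure only the spread between these samples.

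Clearance of apoptotic cells, called efferocytosis, begins when phosphatidylserine on the dying cell is bound by receptors such as MERTK and AXL, mostly through bridging proteins such as GAS6 and MFGE8. The cargo is then broken down in the phagolysosome, and the macrophage has to handle its cholesterol, nucleotides, iron and peptides. IL-10 acts through STAT3 and is known to restrain inflammatory genes in macrophages.

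All 8 libraries carried high levels of defining macrophage transcripts: Adgre1 (F4/80) lay between 709 and 846 TPM (transcript abundance scaled to a fixed total per library), and Lyz2 (lysozyme) averaged 14250 TPM in the Treg-phagocytic and 12880 TPM in the non-phagocytic libraries. TPM values keep no read totals, so depth is unknown; genes with a value above 0 numbered 16942 to 17676 in the Treg-phagocytic and 17348 to 18194 in the non-phagocytic libraries. The first principal component held 31.6% of the variance and separated the groups, whereas the second held 14.5% and set the Ax647-1 library apart from the other Treg-phagocytic libraries.

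Of 11885 genes tested, 1551 (13.1%) differed between Treg-phagocytic and non-phagocytic macrophages at an adjusted p below 0.05 in limma: 934 were higher (7.86%) and 617 lower (5.19%) after uptake. Here and below, "after uptake", "rose" and "fell" compare sorted fractions. Whether these macrophages already differed before uptake was not tested. Most of these differences were small. On the log2(TPM + 1) scale used for every difference given here, which understates changes of low genes, the median size was 0.28 for the higher and 0.27 for the lower genes. A change of at least 1 log2 unit was reached by 69 higher (0.581%) and 24 lower genes (0.202%). The direction split depended on scaling: without the scaling factor, which differed by 0.08 log2 units between the groups, 555 genes were higher and 1569 lower, so that 26.1% rather than 60.2% of the calls were higher. Small differences below are therefore relative to the bulk of genes, whose median difference was -0.003 with and -0.08 without the scaling factor. Leaving out non-phagocytic library 3 gave 1004 calls with 352 lower, and leaving out non-phagocytic library 1 or 4 gave 398 or 400 lower calls. The lowest difference, of the predicted gene Gm27286, was called only narrowly, and that call was lost on leaving out any of the 8 libraries other than Treg-phagocytic Ax647-2 (adjusted p up to 0.114).

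**Figure D1:**
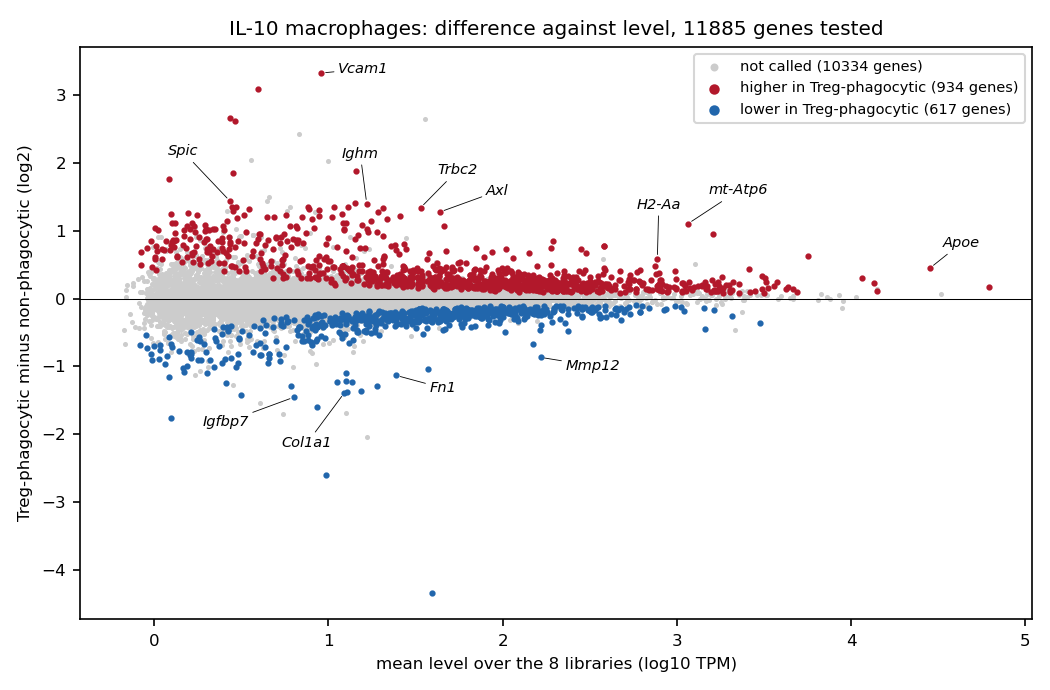
Difference between Treg-phagocytic and non-phagocytic IL-10 macrophages (vertical axis, log2 of scaled TPM + 1) against mean level over the 8 libraries (horizontal axis, log10 TPM) for the 11885 tested genes, 1 point per gene, with called genes coloured by direction. Vcam1 stands highest at 3.33, and Col1a1, Igfbp7 and Fn1 lie below -1; the lowest point, at -4.35, is the predicted gene Gm27286 (adjusted p = 0.0463), singled out after its values were seen.

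The direct comparison with Tconv uptake gave far fewer calls. Of 11870 genes tested, 202 (1.7%) differed between Treg-phagocytic and Tconv-phagocytic macrophages, 84 higher (0.708%) and 118 lower (0.994%) after Treg uptake. This count was 84, 91, 124, 125, 128 and 134 on leaving out Tconv-phagocytic Ax647-2 or BV421-1, Treg-phagocytic BV421-2 or BV421-1, or Tconv-phagocytic Ax647-1 or BV421-2. The higher calls alone numbered 28, 33, 30, 31, 53 and 65 in the same order, and 53 without Treg-phagocytic Ax647-2. With a minimum of 5 TPM in at least 4 libraries, 75 genes were higher and 67 lower. The non-phagocytic libraries serve as controls for both kinds of uptake, and for that reason the members' values are given side by side and no overlap is counted. The difference between IL-10 and IFN-γ macrophages in the Treg uptake effect was called for 1238 of 12872 genes (9.62%). In the IFN-γ libraries the T cell sum was 1038 to 1598 TPM with Treg uptake and 882.9 to 1424 TPM without, and its part in that comparison was not tested.

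The adhesion molecule gene Vcam1 (chromosome 3, 116109949 to 116129688, minus strand, GRCm38) showed the largest rise among the named genes. VCAM1 binds the integrin VLA-4 and is known as a mark of macrophages of the splenic red pulp and bone marrow. Its level was 18.7, 17.2, 17.5 and 16.03 TPM in the Treg-phagocytic libraries and 0.94, 1.08, 0.79 and 0.78 TPM in the non-phagocytic ones. The groups were far apart, with means of 17.4 ± 1.10 and 0.90 ± 0.14 TPM (SD, n = 4 each) and a difference of 3.33 ± 0.09 (SE). Only non-phagocytic library 2 reached 1 TPM there. Vcam1 therefore met the level filter through the Treg-phagocytic libraries, and no p is given for this difference. Uptake of conventional T cells went with an intermediate level, 8.63 to 12.8 TPM, and the direct difference between the kinds of cargo was 0.61 (adjusted p = 0.0245 in limma). In IFN-γ macrophages the means were 5.72 TPM with and 4.36 TPM without Treg uptake, and the uptake difference was 2.84 ± 0.21 log2 units larger under IL-10 than under IFN-γ (adjusted p = 6.73e-07).

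Other adhesion genes moved less, and in both directions. Of 28 tested members of the adhesion and integrin list, 6 rose and 5 fell, with a median difference of 0.03 against -0.003 over all tested genes. The count of falls was 3 or 2 on leaving out Treg-phagocytic Ax647-1, Ax647-2 or BV421-1 or non-phagocytic library 1, 2 or 3. Itgal (LFA-1 α chain) rose by 0.47, from 9.13 ± 0.48 to 12.3 ± 1.00 TPM. It is also a lymphocyte gene, and T cell transcripts were higher in the same libraries, as described below; their part in this rise was not tested. Epb41l3, a protein 4.1 family member that links membrane proteins to the cytoskeleton, rose from 2.53 ± 0.21 to 5.58 ± 0.48 TPM. Itgam (CD11b, the α chain of complement receptor 3) fell by 0.22. Itga4 and Itgb1, whose products form VLA-4, did not pass the test, with means of 13.9 against 15.9 TPM and 208.6 against 222.2 TPM.

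**Figure D2:**
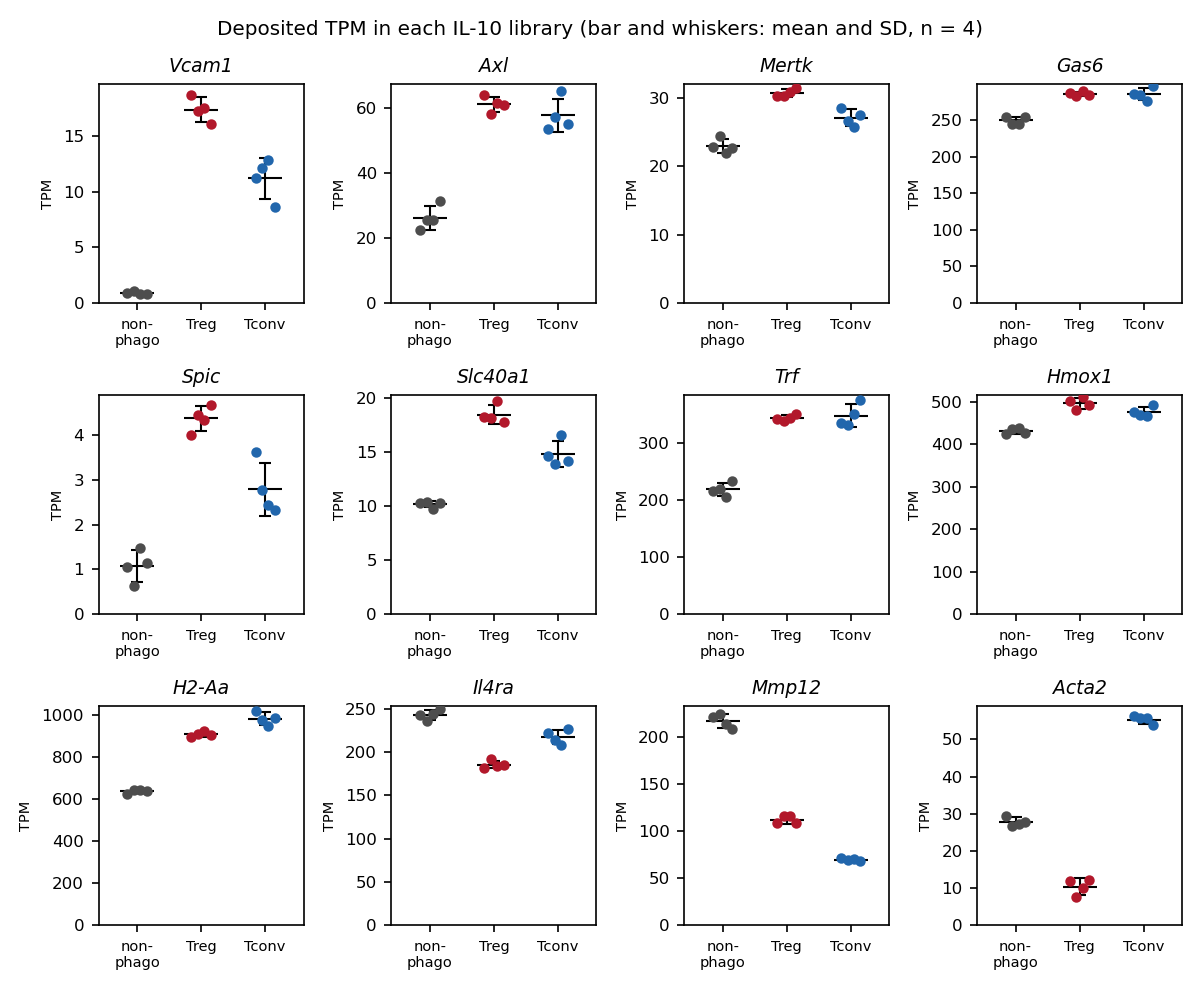
TPM per library (vertical axis of each panel, starting at 0) for selected genes in the non-phagocytic, Treg-phagocytic and Tconv-phagocytic IL-10 groups (horizontal axis, n = 4 each); points are libraries, bars are means and whiskers are SD. Vcam1 and Axl are low in all 4 non-phagocytic libraries, and Acta2 is lowest in the Treg-phagocytic and highest in the Tconv-phagocytic ones.

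Receptors and bridging proteins for phosphatidylserine did not move as 1 group: of 20 tested, 5 rose, 5 fell and 10 did not pass, with a median of -0.04. Without the scaling factor 4 rose and 9 fell, and 3 rose on leaving out Treg-phagocytic Ax647-1, BV421-1 or BV421-2 or non-phagocytic library 1, 2 or 4. The receptor tyrosine kinase Axl (chromosome 7, 25757273 to 25788705, minus strand, GRCm38) changed most. Axl measured 64.1, 58.4, 61.6 and 61.1 TPM after Treg uptake and 22.5, 25.5, 25.5 and 31.4 TPM without uptake. All 4 Treg-phagocytic values exceeded the highest non-phagocytic value by a wide margin, and the difference was 1.28 ± 0.09 (adjusted p = 2.62e-05). The related receptor Mertk measured 30.4, 30.3, 30.96 and 31.5 TPM against 22.9, 24.5, 22 and 22.6 TPM. This was a smaller change, 0.48 ± 0.05 (adjusted p = 0.000224). Gas6, the ligand that bridges these receptors to phosphatidylserine, rose by 0.28 from a high level, from 249.3 ± 5.21 to 285.9 ± 2.62 TPM.

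Other members fell. Mfge8, which bridges phosphatidylserine to αv integrins, measured 247.5, 258.7, 250.0 and 248.5 TPM after uptake and 327.1, 311.5, 311.7 and 318.6 TPM without, and fell by 0.26 (adjusted p = 0.000289). The integrin subunit Itgb5 fell by 0.12, the receptor family member Cd300ld by 0.21 and the phospholipid-binding annexin Anxa2 by 0.17. The call of Itgb5 was lost under 7 of 22 alternatives, among them a replicate block by file number and 1 model of all 28 libraries. Cd36, a scavenger receptor, did not pass the test at 150.8 ± 11.4 against 163.0 ± 9.88 TPM, nor did Pros1, the second bridging ligand of the MERTK family, at 22.9 against 23.9 TPM. Timd4, a phosphatidylserine receptor of resident macrophages, was at 0.36 TPM or less in every one of the 8 libraries. Engulfment machinery moved little, with 4 of 27 tested genes higher, 5 lower (1 and 9 without the scaling factor) and differences from -0.28 to 0.21. The higher count was 2 without Treg-phagocytic BV421-1 or BV421-2 or non-phagocytic library 1 or 4, and 1 without library 3. Cdc42, a small GTPase of the phagocytic cup, rose by 0.20, and the autophagy genes Becn1 and Map1lc3a fell by 0.28 and 0.25.

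Of the phosphatidylserine list, 3 members passed the direct test between the kinds of cargo. Mfge8 (0.22, adjusted p = 0.0107) and the annexin gene Anxa1 (0.19, adjusted p = 0.0152) were higher after Treg than after Tconv uptake, and the thrombospondin gene Thbs1 was lower (-0.36, adjusted p = 1.2e-05). Axl and Gas6 did not pass. Axl averaged 57.9 TPM in the Tconv-phagocytic libraries, with a direct difference of 0.09 (adjusted p = 0.572), and Gas6 averaged 285.5 TPM. Mertk averaged 27.1 TPM there, and its direct difference of 0.18 did not pass (adjusted p = 0.0995). Under IFN-γ, Axl averaged 35.6 TPM with and 45.2 TPM without Treg uptake, and Mertk 15.2 and 21.5 TPM. For both genes the uptake difference was larger under IL-10, by 1.55 ± 0.17 for Axl (adjusted p = 2.17e-05) and by 0.90 ± 0.10 for Mertk (adjusted p = 4.27e-05).

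Transcripts of T cells were present in both groups and higher after Treg uptake. Of 29 tested T cell genes, 27 rose and none fell, with a median difference of 0.94; the 30 listed genes summed to 394.9 to 439.5 TPM in the Treg-phagocytic and 227.4 to 252.0 TPM in the non-phagocytic libraries. In bulk samples, fewer cells of a type and less RNA per cell cannot be told apart. The T cell receptor constant gene Trac measured 13.3, 27.4, 21.5 and 21.3 TPM against 8.43, 7.45, 5.78 and 8.23 TPM. The lowest Treg-phagocytic value, in Ax647-1, still exceeded every non-phagocytic value, and the difference was 1.41 ± 0.19 (adjusted p = 0.00143). Trbc1 and Trbc2, the β-chain constant genes, rose by 1.28 and 1.34, but their sequences are close enough that their reads can be split between them.

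The CD3 subunit gene Cd3g rose by 1.35, the coreceptor gene Cd4 by 1.31, from 4.84 ± 0.82 to 12.9 ± 2.17 TPM, and the signalling regulator Cd5 by 1.24. Skap1, an adaptor of T cell receptor signalling, rose by 1.32, and the lymphocyte GTPase genes Gimap6 and Gimap3 by 1.33 and 1.25. Fhl1, a LIM-domain protein gene, and Nrn1, which encodes the neuritin protein, rose by 1.22 and 1.21. The same 30 genes summed to 276.6 to 344.9 TPM in the Tconv-phagocytic libraries, and 5 of them passed the direct test, all with higher levels after Treg uptake. In the IFN-γ non-phagocytic libraries the sum was 882.9 to 1424 TPM, well above that of any IL-10 library. Markers of CD8 T and NK cells stayed at a summed 3.02 TPM or less in all 8 libraries.

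Treg genes moved with them. Of 11 tested, 7 rose and none fell, with a median of 0.75, and the 17 listed genes summed to 52.3 to 57.3 TPM against 27.9 to 30.99 TPM. Foxp3, the transcription factor that defines Treg cells, measured 4.21, 5.78, 6.34 and 5.27 TPM against 1.85, 3.61, 4.92 and 2.34 TPM. These ranges overlapped, and the difference of 0.72 ± 0.22 did not pass (adjusted p = 0.058). Izumo1r (folate receptor 4), abundant on Treg cells, measured 16.2, 13.6, 14.9 and 14.2 TPM against 6.58, 5.76, 4.99 and 7.43 TPM and rose by 1.21 ± 0.11 (adjusted p = 0.000139). Tnfrsf18 (GITR), a costimulatory receptor, rose by 0.82, the IL-2 receptor β chain gene Il2rb by 0.96 and the inhibitory receptor gene Tigit by 0.99. The direct difference from Tconv uptake passed for Foxp3 (0.59, adjusted p = 0.0448), Izumo1r (0.62, adjusted p = 0.0114) and Tnfrsf18 (0.48, adjusted p = 0.0368). It also passed, in the other direction, for Lrrc32 (GARP), which presents latent TGF-β on Treg cells (-0.68, adjusted p = 0.0128). Lrrc32 averaged 2.10 TPM after Treg uptake, 3.98 TPM after Tconv uptake and 3.10 TPM without uptake, and its difference from the non-phagocytic libraries did not pass (-0.34, adjusted p = 0.139). The Treg gene sum was 33.5 to 41.8 TPM in the Tconv-phagocytic libraries, between the other IL-10 groups.

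**Figure D3:**
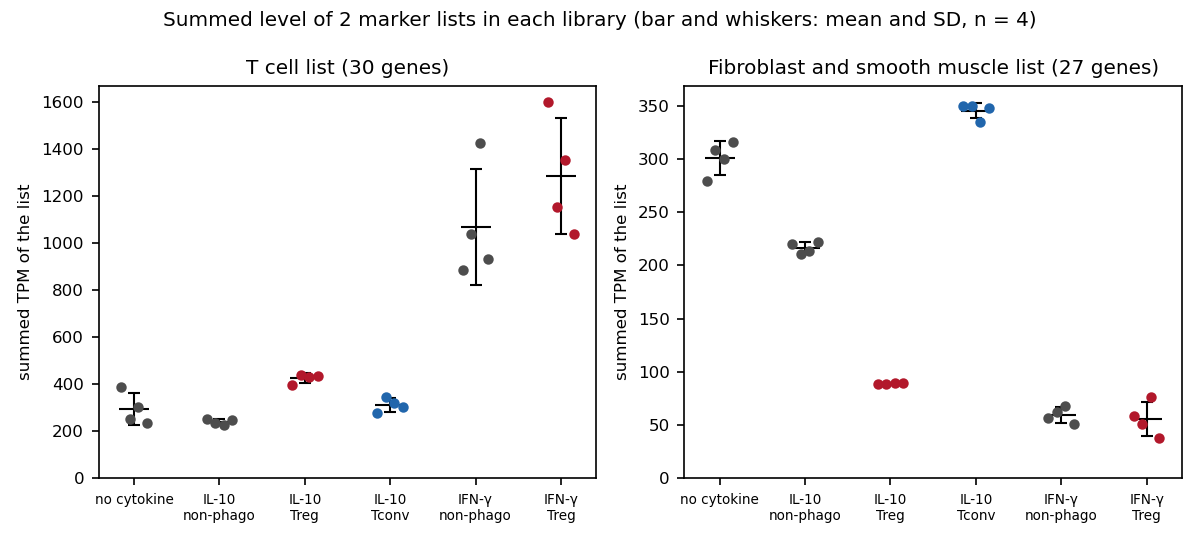
Summed TPM (vertical axis) of the T cell list and of the fibroblast and smooth muscle list, with 1 point per library in 6 groups (horizontal axis; no cytokine is M0), bars for means and whiskers for SD (n = 4). The T cell sum is higher in Treg-phagocytic than in non-phagocytic IL-10 libraries, whereas the fibroblast sum runs from 88.6 to 89.8 TPM against 210.3 to 221.8 TPM.

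Immunoglobulin constant genes rose as well, and 3 variable segments were found almost only in the Treg-phagocytic libraries. The B and plasma cell list had 4 of 5 tested genes higher, and its 15 genes summed to 64.3 to 74.6 TPM against 30.6 to 36.9 TPM. Most of that sum came from the constant genes: Ighm (the μ heavy chain) measured 24.9, 22.6, 25.3 and 23.8 TPM against 8.53, 9.40, 9.29 and 8.82 TPM, a rise of 1.40 ± 0.06 (adjusted p = 2.16e-06). Igkc (the κ light chain) rose by 1.34 ± 0.10, from 11.7 ± 1.03 to 29.6 ± 3.83 TPM. Both were higher than after Tconv uptake, by 0.98 for Ighm (adjusted p = 0.000219) and by 1.32 for Igkc (adjusted p = 0.0053). The defining B cell marker Ms4a1 (CD20) was low throughout, at most 0.36 TPM.

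Gene-level TPM of a variable segment does not show whether it was rearranged. The 3 variable segments picked by the naming rule, which they could meet only through the Treg-phagocytic libraries, are printed here. Each is the last 300 coding bases of the annotated germline segment in GRCm38 (GENCODE vM21), 5′ to 3′, and not a sequence read from these libraries. Capitals mark bases outside any 31-base stretch that also occurs in a transcript of another annotated gene, so that reads over them can be placed.
Igkv16-104: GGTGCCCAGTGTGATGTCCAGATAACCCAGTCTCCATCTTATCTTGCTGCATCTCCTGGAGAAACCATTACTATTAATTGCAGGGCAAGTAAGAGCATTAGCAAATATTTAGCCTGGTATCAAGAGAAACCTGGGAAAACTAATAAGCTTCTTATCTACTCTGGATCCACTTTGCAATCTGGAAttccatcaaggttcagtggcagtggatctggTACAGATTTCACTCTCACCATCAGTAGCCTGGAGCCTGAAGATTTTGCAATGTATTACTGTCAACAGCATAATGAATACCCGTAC
Igkv15-103: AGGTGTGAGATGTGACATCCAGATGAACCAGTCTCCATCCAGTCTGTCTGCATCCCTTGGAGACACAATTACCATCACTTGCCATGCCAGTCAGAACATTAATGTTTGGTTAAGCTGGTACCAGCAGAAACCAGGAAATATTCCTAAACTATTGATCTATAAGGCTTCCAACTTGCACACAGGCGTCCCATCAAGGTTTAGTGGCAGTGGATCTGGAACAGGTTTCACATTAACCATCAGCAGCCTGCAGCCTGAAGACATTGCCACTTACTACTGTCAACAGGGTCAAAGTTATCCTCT
Ighv7-1: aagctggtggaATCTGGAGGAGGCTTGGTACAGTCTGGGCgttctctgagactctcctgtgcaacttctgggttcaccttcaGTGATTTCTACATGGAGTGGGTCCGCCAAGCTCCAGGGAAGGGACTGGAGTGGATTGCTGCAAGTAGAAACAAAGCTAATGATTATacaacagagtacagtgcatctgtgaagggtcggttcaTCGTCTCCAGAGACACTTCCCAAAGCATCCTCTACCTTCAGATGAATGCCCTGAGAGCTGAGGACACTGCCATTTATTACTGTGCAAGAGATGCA

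Igkv16-104 (chr6:68425575-68426072, plus strand) shared 1 of its 318 coding stretches of 31 bases with another gene, Igkv15-103 (chr6:68437440-68437925, plus strand) none of 317, and Ighv7-1 (chr12:113896408-113896946, minus strand) 20 of 333, with Ighv7-2 and Ighv7-3. The κ segments lie 11367 bases apart with 0 annotated genes between them. Igkv16-104 measured 5.04, 6.10, 6.67 and 5.08 TPM after Treg uptake. It was listed at 0 in 3 non-phagocytic libraries and at 0.52 TPM in non-phagocytic library 2. Igkv15-103 measured 3.42, 8.08, 10.2 and 9.71 TPM after Treg uptake and was listed at 0 in all 4 non-phagocytic libraries. Ighv7-1 measured 6.48, 4.70, 2.94 and 7.69 TPM and was likewise listed at 0 in those 4. All 3 segments were listed at 0 in the IFN-γ Treg-phagocytic, IFN-γ non-phagocytic and M0 libraries; in the Tconv-phagocytic libraries the only value above 0 was 0.91 TPM of Igkv15-103. No fold, difference or p is given for these segments, which entered the test only through the Treg-phagocytic libraries. Another segment, Ighv1-39, chosen after its values were seen and below the 5 TPM rule, measured 2.01, 1.46, 3.20 and 3.03 TPM and was listed at 0 in the non-phagocytic, Tconv-phagocytic and M0 libraries.

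Genes of iron and heme handling were higher after Treg uptake more often than lower: 11 of 22 tested rose and 1 fell, and without the scaling factor 10 rose and 1 fell. The fall, of Bach1, a repressor of heme-responsive genes, was lost on leaving out Treg-phagocytic Ax647-2, BV421-1 or BV421-2 or non-phagocytic library 3 or 4 (adjusted p up to 0.0659). The list's median was 0.11. Of the erythroid and platelet markers, 4 were tested and 2 rose, the platelet chemokine genes Ppbp (0.72) and Pf4 (0.24). The call of Pf4 was lost in 1 model of all 28 libraries (adjusted p = 0.151 in limma). The 10 listed markers summed to 1109 to 1229 TPM against 1034 to 1087 TPM, most of it Pf4, and their part in the iron gene rises was not tested. Spic, the transcription factor of iron-recycling red pulp macrophages, measured 4.01, 4.45, 4.34 and 4.68 TPM against 1.04, 0.63, 1.48 and 1.14 TPM. The groups did not overlap, and Spic rose by 1.44 ± 0.14 (adjusted p = 0.000199). Slc40a1 (ferroportin, the cellular iron exporter) measured 18.2, 18.1, 19.7 and 17.8 TPM against 10.3, 10.4, 9.73 and 10.3 TPM, a rise of 0.87 ± 0.06 (adjusted p = 2.44e-05). The iron carrier gene Trf (transferrin) rose by 0.73, from 218.7 ± 11.7 to 343.8 ± 5.33 TPM, and Ncoa4, the receptor that delivers ferritin to the lysosome, by 0.60, from 94.4 ± 7.06 to 136.1 ± 5.35 TPM.

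Smaller rises were seen for the transferrin receptor gene Tfrc, by 0.57 at 3.95 against 2.48 TPM, and for Hmox1 (heme oxygenase 1), by 0.28 at 497.0 ± 12.7 against 432.1 ± 7.06 TPM. The call of Tfrc was lost under 6 of the 21 alternatives that tested it, among them each dye alone (adjusted p up to 0.171 in limma). Fth1, the ferritin heavy chain and the most abundant transcript of these libraries, rose by 0.18 (63670 against 59480 TPM) and was the 1 listed iron gene called in the direct test against Tconv uptake (0.12, adjusted p = 0.00736). Ftl1, the ferritin light chain, lay just outside the threshold at 0.07 (adjusted p = 0.0502). Its deposited means were 32630 TPM after Treg uptake and 32860 TPM without, and its difference was as low as -0.01 under the alternatives. None of Spic, Slc40a1, Trf, Ncoa4 and Hmox1 passed the direct test against Tconv uptake, where their means were 2.79, 14.8, 348.1, 119.4 and 476.2 TPM. Antioxidant genes had 9 of 22 tested higher and 0 lower, among them the peroxiredoxins Prdx1 and Prdx6 (0.37 and 0.40) and thioredoxin Txn1 (0.34). Without the scaling factor 5 of them were higher and 2 lower.

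**Figure D4:**
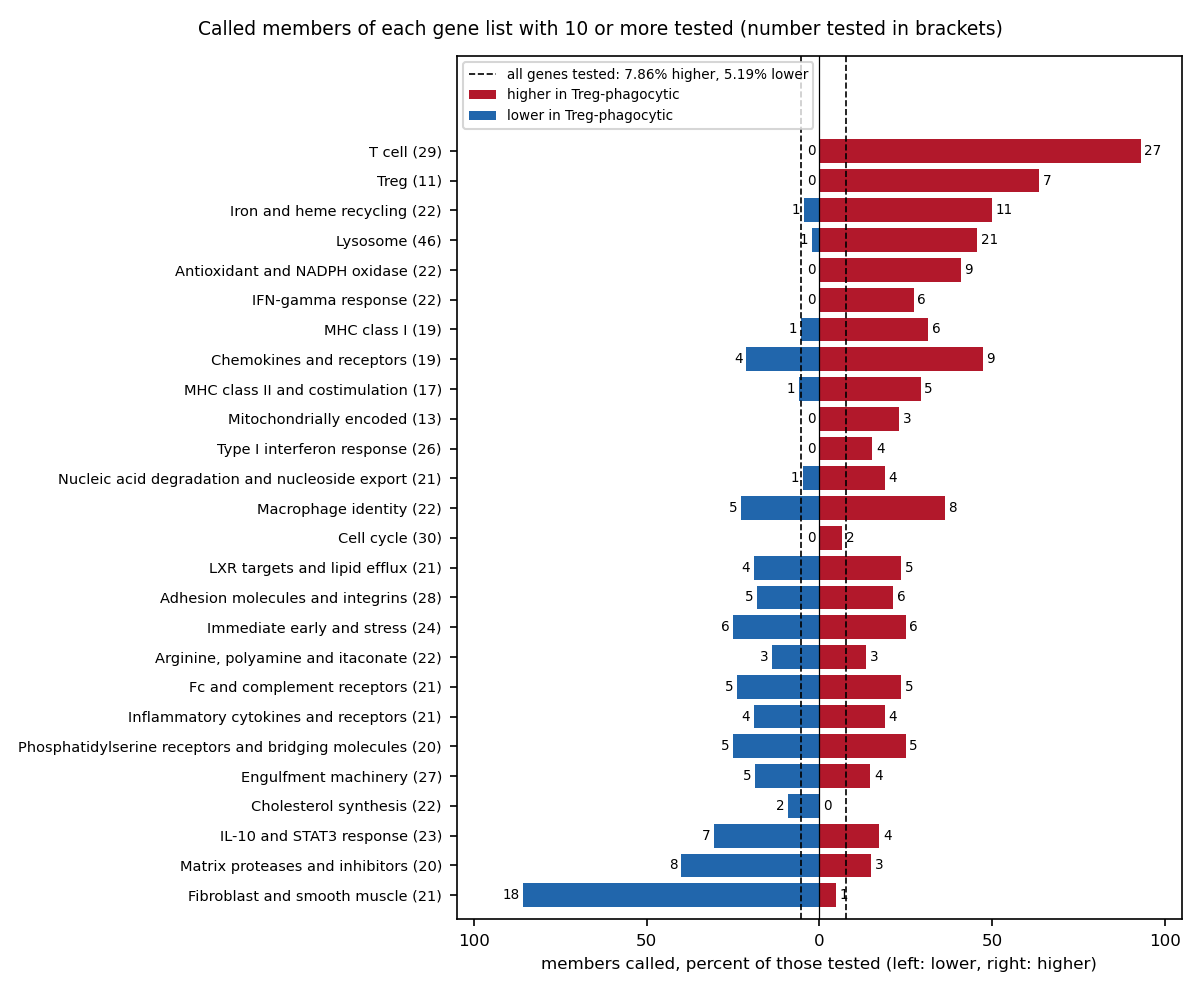
Percent of each list's tested genes (horizontal axis) called higher (right) or lower (left) in Treg-phagocytic than in non-phagocytic IL-10 macrophages, with the number called at each bar and the number tested in brackets; dashed lines mark the shares over all genes. The T cell list has the highest share called higher (27 of 29) and the fibroblast and smooth muscle list the highest share called lower (18 of 21).

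Lysosomal genes showed small, one-directional differences under the main scaling: 21 of 46 tested rose and 1 fell, with a median of 0.11 against -0.003 over all genes. Without the scaling factor the count was 10 higher and 8 lower, with a median of 0.03, and without non-phagocytic library 2 a second gene was called lower. Lipa, the acid lipase that frees cholesterol from engulfed cholesteryl esters, measured 627.7, 651.4, 668.6 and 669.6 TPM against 532.4, 542.1, 525.8 and 508.8 TPM. All Treg-phagocytic values were higher, and Lipa rose by 0.39 ± 0.03 (adjusted p = 3.91e-05). Psap, the precursor of the sphingolipid activator proteins, and Gla (α-galactosidase A) each rose by 0.30. The exception was Ctsl (cathepsin L), which fell by 0.36 (2536 ± 176.7 against 3446 ± 66.8 TPM). Lipa also passed the direct test against Tconv uptake (0.17, adjusted p = 0.00976). Of 21 tested genes of nucleic acid breakdown and nucleoside export, 4 rose and 1 fell: the lysosomal exonuclease gene Pld3 rose by 0.24, the purine salvage gene Hprt by 0.41 (87.0 against 69.0 TPM), and the guanine deaminase gene Gda fell by 0.36.

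Lipid genes did not move as a block. Of 21 tested targets and regulators of the sterol-sensing LXR receptors, 5 rose and 4 fell (3 and 8 without the scaling factor), with a median of 0.02. Leaving out Treg-phagocytic Ax647-1 or non-phagocytic library 3 or 4 gave 3 rises, and leaving out Treg-phagocytic BV421-1 or BV421-2 or non-phagocytic library 1, 3 or 4 gave 2 falls. Apoe, a lipid carrier secreted by macrophages, rose by 0.45 from a very high level (24740 ± 1112 to 32090 ± 2340 TPM). Mylip, a ubiquitin ligase gene induced by LXR, rose by 0.29, and Pparg, a lipid-activated nuclear receptor, by 0.28. Lpl (lipoprotein lipase) fell by 0.27, from 440.9 ± 5.94 to 346.9 ± 8.65 TPM, and was lower still after Tconv uptake at 303.8 TPM. The cholesterol exporter genes Abca1 and Abcg1 did not pass, at 57.6 against 55.3 TPM and 77.3 against 83.7 TPM. In the cholesterol synthesis list 2 of 22 tested genes fell and 0 rose (1 fell without non-phagocytic library 3 and 4 without library 4).

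**Figure D5:**
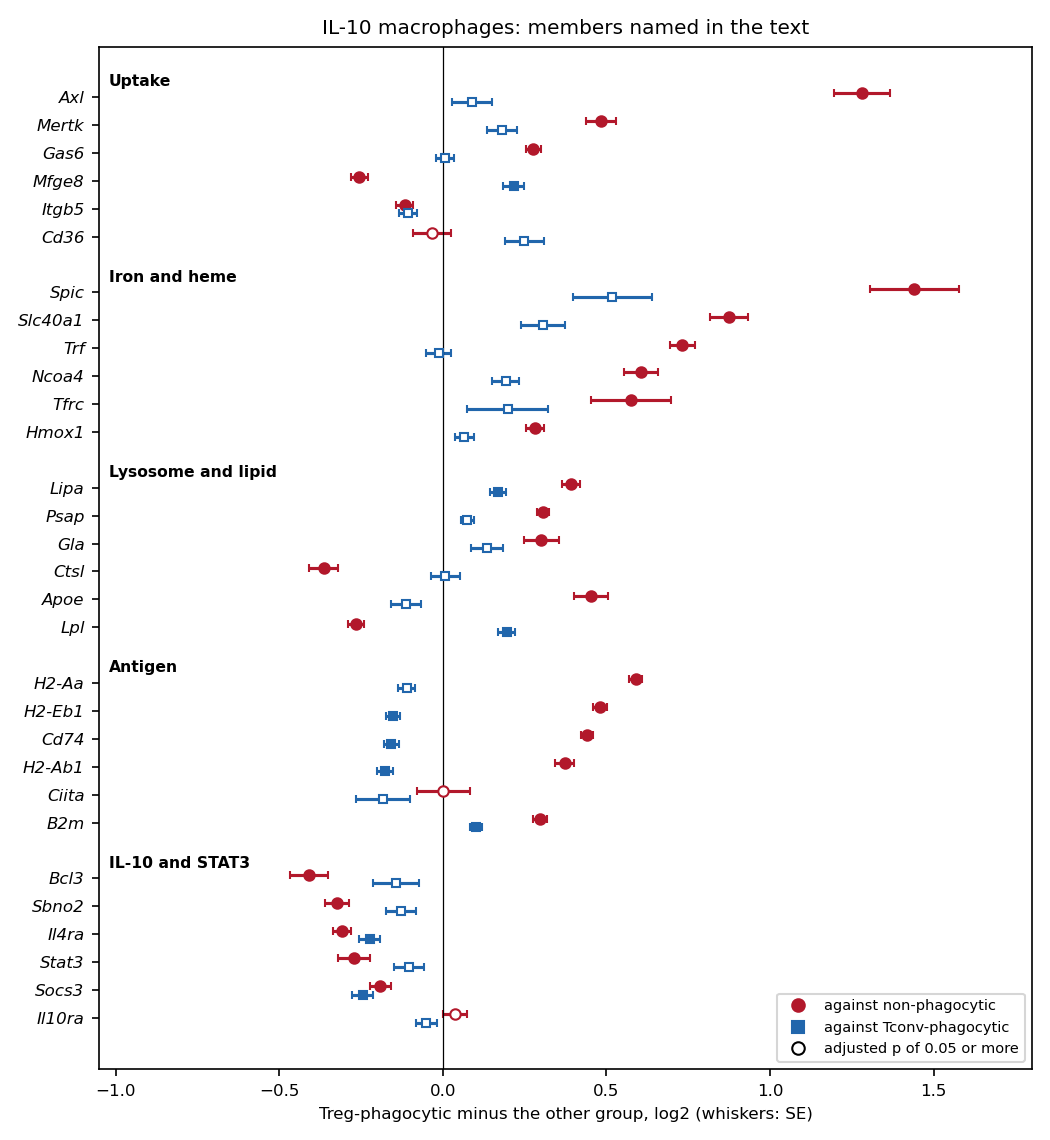
Difference in level (horizontal axis, log2 of scaled TPM + 1, whiskers are standard errors) of Treg-phagocytic IL-10 macrophages from non-phagocytic (circles) and Tconv-phagocytic ones (squares) for selected genes of uptake, iron and heme, lysosome and lipid, antigen presentation, and the IL-10 and STAT3 response (vertical axis). Open symbols did not pass the test; against non-phagocytic macrophages Axl and Spic lie beyond 1, and Ciita lies at 0.00.

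Genes of MHC class II, which present engulfed peptides to CD4 T cells, were higher after uptake, whereas their master regulator was not. H2-Aa measured 893.9, 908.1, 924.0 and 902.8 TPM against 625.5, 642.1, 642.6 and 637.0 TPM. The gap was many times the spread within either group, and the rise was 0.59 ± 0.02 (adjusted p = 7.33e-07). H2-Eb1 rose by 0.48, Cd74 (the invariant chain) by 0.44 and H2-Ab1 by 0.37, from 713.7 ± 25.9 to 873.2 ± 12.2 TPM. Ciita, the transactivator of these genes, averaged 7.40 ± 0.66 and 7.79 ± 0.25 TPM, a difference of 0.00 ± 0.08 (adjusted p = 0.992). The full list had 5 of 17 tested genes higher and 1 lower, the inhibitory ligand gene Vsir (VISTA), which fell by 0.14. After Tconv uptake the class II levels were higher again, and the direct difference passed for H2-Ab1 (-0.18), H2-Eb1 (-0.15) and Cd74 (-0.16) but not for H2-Aa (-0.11, adjusted p = 0.0768). Under IFN-γ, H2-Ab1 went the other way, with 910.5 TPM after Treg uptake and 1512 TPM without, and the difference between the cytokines was 1.04 ± 0.10 (adjusted p = 9.37e-06).

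MHC class I genes had 6 of 19 tested higher and 1 lower; the lower call, of the peptide-loading gene Tapbp, was lost without Treg-phagocytic Ax647-2, BV421-1 or BV421-2 or non-phagocytic library 1 or 3 (adjusted p up to 0.0717). B2m (β2-microglobulin) rose by 0.30, from 2950 ± 69.3 to 3428 ± 3.76 TPM. The class Ib genes H2-Q6 and H2-Q7 rose by 0.49 and 0.45, but they are close paralogs whose reads can be split. Of 22 tested IFN-γ response genes, 6 rose and 0 fell, with a median of 0.35, among them Ly6a (Sca-1), by 0.80. The chemokine gene Cxcl10 (2.44 ± 0.48 against 0.78 ± 0.44 TPM) and the GTPase gene Gbp4 count among the 6. They averaged 0.78 and 0.74 TPM without uptake and met the level filter narrowly. Cxcl10 was tested under only 19 and Gbp4 under only 15 of 22 alternatives, so no difference is given for them. Both calls were lost with a replicate block by title number. Of 26 tested type I interferon genes, 4 rose (2 without non-phagocytic library 4) and 0 fell, among them the regulator Irf7, by 0.45. The IFN-γ-treated libraries had 13.3 and 64.2 TPM of Gbp4 with and without Treg uptake, against 2.24 and 0.74 TPM here. T cells also express several of these genes; the part of the higher T cell sum in these rises was not tested.

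Components and targets of the IL-10 and STAT3 pathway were more often lower than higher after uptake, although every library had received IL-10. Of 23 tested, 4 rose (17.4%) and 7 fell (30.4%), with a median of -0.06. Both shares lay above those over all tested genes, 7.86% higher and 5.19% lower. Without the scaling factor 3 rose and 9 fell. When all 28 libraries were modelled together, 2 rose and 3 fell. Il4ra, an IL-10-inducible receptor subunit, measured 181.7, 191.7, 184.5 and 184.8 TPM against 243.5, 236.4, 243.8 and 249.6 TPM. It fell by 0.31 ± 0.03 (adjusted p = 0.000137), and it was lower than after Tconv uptake by 0.22 (adjusted p = 0.00857). Bcl3, an IκB family repressor, fell by 0.41, from 81.2 ± 4.07 to 57.7 ± 3.92 TPM, and the corepressor gene Sbno2 by 0.32, from 139.5 ± 3.32 to 105.2 ± 4.30 TPM. Stat3 itself fell by 0.27 and its feedback inhibitor Socs3 by 0.19. Socs3 was at 165.5 TPM after Tconv uptake, 168.2 TPM without uptake and 139.2 TPM after Treg uptake, and its direct difference between the kinds of cargo was -0.24 (adjusted p = 0.00459).

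The IL-10 receptor gene Il10ra did not pass (89.7 ± 2.35 against 92.4 ± 2.91 TPM), nor did Il10 itself (1.87 ± 0.38 against 1.58 ± 0.20 TPM). M0 libraries, without IL-10, averaged 44.9 TPM of Il4ra and 3.79 TPM of Socs3. Tnfaip3 (A20, an inhibitor of NF-κB signalling) rose by 0.41.

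Chemokine and cytokine genes were mixed. Of 19 tested chemokines and receptors, 9 rose and 4 fell, with a median of 0.15. Ccl8, a monocyte chemoattractant that averaged 0.18 TPM in M0, measured 23.2, 25.5, 24.2 and 23.7 TPM against 13.4, 11.7, 9.23 and 10.01 TPM and rose by 1.14 ± 0.10 (adjusted p = 0.000116). Ccl5 rose by 1.07, from 30.3 ± 1.97 to 61.5 ± 9.18 TPM, and Ccl3 by 0.61. The neutrophil attractant gene Cxcl2 fell by 0.39 and the receptor gene Ccr1 by 0.29. Among 21 tested inflammatory cytokines and receptors 4 rose and 4 fell (2 and 7 without the scaling factor): Tnf rose by 0.87 at a low level (5.99 ± 1.04 against 3.01 ± 0.57 TPM), Il18bp, the decoy of IL-18, rose by 0.44, and Nfkbiz, an IκB family coactivator, fell by 0.32. Leaving out single libraries lowered these counts to as few as 2 rises (6 libraries, not Treg-phagocytic Ax647-1 or non-phagocytic 1) and 1 fall (Treg-phagocytic BV421-2 or non-phagocytic 4). Of 9 tested genes of alternative activation, 3 rose and 1 fell, with Clec7a (dectin-1) and Clec10a higher by 0.52 and 0.49 and the transcription factor gene Klf4 lower by 0.52. Of 21 tested Fc and complement genes, 5 rose and 5 fell (4 and 7 without the scaling factor). The complement genes Cfp (properdin) and C3 rose by 0.54 and 0.53, and the Fc receptor genes Fcgr1 and Fcgr3 were called lower by -0.22 and -0.11. Both of these calls were lost without Treg-phagocytic Ax647-2 or BV421-2 or non-phagocytic library 3, and that of Fcgr1 also without library 1, 2 or 4 (adjusted p up to 0.064). The falls numbered 3 without Treg-phagocytic Ax647-1 or non-phagocytic library 2, 2 without Treg-phagocytic Ax647-2 or BV421-2 or non-phagocytic library 1 or 4, and 1 without library 3.

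Many matrix genes were lower after Treg uptake. Of 21 tested fibroblast and smooth muscle genes, 18 fell and 1 rose, with a median of -1.10; the 1 was Thy1, which is also a T cell gene and rose by 1.04. The fibroblast markers Col1a1 and Col1a2, which encode type I collagen, fell by 1.39 and 1.38: Col1a1 measured 6.48, 5.68, 5.44 and 6.75 TPM against 17.5, 17.8, 19.5 and 19.4 TPM (adjusted p = 1.32e-05). The smooth muscle actin gene Acta2 measured 11.9, 7.46, 9.91 and 12.2 TPM against 29.5, 26.8, 27.3 and 27.7 TPM, and fell by 1.29 ± 0.13 (adjusted p = 0.000271). Igfbp7 and Col6a1 fell by 1.46 and 1.43, the collagen chaperone gene Serpinh1 by 1.29, Sparc by 1.24, Tagln by 1.23, the growth factor-like gene Ccn2 by 1.22, fibronectin (Fn1) by 1.13 and biglycan (Bgn) by 1.10.

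As a sum, these genes were highest after Tconv uptake. The 27 listed genes summed to 88.6 to 89.8 TPM in the Treg-phagocytic, 210.3 to 221.8 TPM in the non-phagocytic and 334.5 to 349.8 TPM in the Tconv-phagocytic libraries, and to 279.4 to 316.2 TPM in M0. Against Tconv uptake 19 of them were lower in the direct test. Acta2 averaged 55.3 TPM and Col1a1 34.0 TPM after Tconv uptake. The fibroblast receptor gene Pdgfra was at 0.45 TPM or less in all 8 libraries. Whether stromal cells in the sorted fractions had a part in these differences was not tested.

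Matrix proteases and inhibitors had 3 of 20 tested genes higher and 8 lower (5 without non-phagocytic library 1 or 2, 4 without library 3). Mmp12, the macrophage elastase, measured 108.9, 115.7, 116.5 and 108.4 TPM against 222.1, 224.9, 214.0 and 209.2 TPM. No value of 1 group came near the other, and Mmp12 fell by 0.87 ± 0.04 (adjusted p = 2.16e-06). Unlike the collagens it was lowest after Tconv uptake, at 69.7 TPM, and the direct difference of Treg from Tconv uptake, 0.69, passed (adjusted p = 9.54e-06). Under IFN-γ it averaged 209.6 and 181.0 TPM with and without Treg uptake, and the uptake difference under IL-10 minus that under IFN-γ was -1.14 ± 0.12 (adjusted p = 1.33e-05). Mmp13, a collagenase, fell by 0.87 (1.60 ± 0.21 against 3.95 ± 0.43 TPM). Plau (urokinase), an activator of plasminogen, rose by 0.75 (20.2 ± 0.75 against 12.3 ± 0.54 TPM). Mmp14, a membrane-bound protease, rose by 0.47. The stromal genes Serpinf1 and Ccn1 fell by 0.93 and 0.88.

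Macrophage identity genes moved in both directions. Of 22 tested identity genes, 8 rose and 5 fell (4 and 9 without the scaling factor), with a median of 0.00. The falls numbered 3 without Treg-phagocytic BV421-1 or non-phagocytic library 1 or 3, and 2 without Treg-phagocytic BV421-2 or non-phagocytic library 4. Adgre1 did not pass (731.3 ± 21.0 against 813.2 ± 22.9 TPM), although its groups did not overlap, and it was called lower under 1 of 22 alternatives. Aif1 (IBA1) rose by 0.75, from 53.9 ± 6.19 to 86.1 ± 4.49 TPM. Csf1r, the receptor for the growth factor M-CSF, was called lower by 0.16 (791.1 ± 39.1 against 932.2 ± 23.6 TPM; adjusted p = 0.0223). That call was lost on leaving out Treg-phagocytic Ax647-2, BV421-1 or BV421-2 or non-phagocytic library 1 or 4, with adjusted p of 0.0534, 0.0573, 0.0542, 0.0525 and 0.0606. Of 30 tested cell cycle genes 2 rose and 0 fell (1 without non-phagocytic library 2), and Mki67 did not pass (3.92 ± 0.35 against 3.57 ± 0.23 TPM).

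Of 24 tested stress genes 6 rose and 6 fell (4 and 10 without the scaling factor): the heat shock gene Hspa1b rose by 0.75, and Trib3, a target of the integrated stress response, fell by 0.47 (132.6 ± 3.53 against 193.9 ± 4.85 TPM). Of 13 mitochondrially encoded genes, 3 rose, led by mt-Atp6 (1.11 ± 0.15, 1558 ± 297.3 against 760.8 ± 118.6 TPM), which overlaps mt-Atp8. The annotated ribosomal RNA gene CT010467.1 on chromosome 17 rose by 0.95, from 1142 ± 85.3 to 2085 ± 151.9 TPM; it and the mitochondrial genes are given as signs of library make-up, and their part in other differences was not tested.

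At the edge of the test, the kinase subunit gene Pik3cg and Ankrd12 were the last genes inside the threshold, with adjusted p of 0.0497 and 0.0498. Both lost their calls on leaving out each of the 8 libraries in turn. Zfp524, Ftl1 and Klf6 were the first outside, with 0.0501, 0.0502 and 0.0504. The differences of these 5 genes ran from -0.23 to 0.21, and the groups overlapped for Ankrd12, Ftl1 and Klf6.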

How the data were processed

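Poly(A) RNA of sorted mouse macrophages was sequenced from strand-specific libraries, per the labels' protocols. The authors deposited TPM values for 55487 Ensembl gene IDs in each library, written with 2 decimals; the submitters' processing notes name STAR, RSEM and mm10 without versions, and the annotation release is not given in the sources used here. Symbols were found for 55141 IDs, and coordinates and germline segments were taken from GENCODE vM21 (GRCm38). Depth per library is unknown because TPM keeps no read totals. Of 378 library pairs, 0 held identical values. Differences were tested with limma 3.58.1 (R 4.3.3; lmFit, then eBayes with a trend) on the log2 of scaled TPM with a pseudocount of 1, where the scaling factor is a mean of log2 ratios with 30% of ratios and 5% of levels trimmed from each end. Genes entered if 4 or more libraries reached 1 TPM, only the compared groups were fitted, and genes were called at a Benjamini-Hochberg adjusted p below 0.05. The method was tested on simulated data. Named genes were the 15 largest rises and 15 largest falls among called genes whose groups did not overlap and whose higher mean was at least 5 TPM, members of the lists with a known role, 12 genes set by name, and the 3 genes nearest the threshold on each side; some genes that this rule chose are not reported here. The members and lists were chosen with earlier results of these data known. File numbers did not pair the libraries, so no block entered. Alternatives covered the pseudocount, the filter, the scaling, weights, the trend, all 28 libraries in 1 model, each dye alone, a replicate block and each library left out.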

Additional observations from a re-analysis of the deposited data

Results flagged for a closer look

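Among 154 groups of 4 libraries, 2 held a library far from the other 3 by Dixon's test, fewer than the 5% that chance gives. Igkv16-104 was at 0.52 TPM in non-phagocytic library 2 and listed at 0 in the others. The Treg gene sum was 31 TPM in non-phagocytic library 4, with the nearest at 28.3 TPM.

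For 22 of 42 genes the Treg uptake difference under IL-10 differed from that under IFN-γ in limma (adjusted p below 0.05 for the difference itself), against 9.62% of all tested genes. Most of the 42 were named for a large difference under IL-10, so their share is not read as a result. The 3 variable segments, at 0 in the IFN-γ Treg-phagocytic and non-phagocytic libraries, are left out. Values are the IL-10 difference minus the IFN-γ difference on the log2 scale. It was larger under IL-10 for these genes of the T and B cell rises: Trac gave 1.18, Cd3g 1.07, Trbc1 1.03, Trbc2 1.18, Cd5 0.99, Gimap6 0.97, Gimap3 0.81, Fhl1 0.97, Ighm 1.27 and Igkc 1.37. It did not pass for Cd4 (0.50, adjusted p = 0.448), Skap1 (0.68, adjusted p = 0.215), Nrn1 (0.82, adjusted p = 0.174) or Foxp3 (0.86, adjusted p = 0.0861). The IFN-γ non-phagocytic libraries already held a T cell sum of 882.9 to 1424 TPM, and its part in these differences was not tested.

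Among macrophage genes, Vcam1 gave 2.84, Axl 1.55 and Mertk 0.90. Under IFN-γ alone, the uptake difference of Axl did not pass (-0.28, adjusted p = 0.251), and that of Mertk did (-0.42, adjusted p = 0.0454). H2-Ab1 gave 1.04, with 0.37 under IL-10 and -0.68 under IFN-γ (adjusted p = 0.00215). Ciita gave 0.99, but its own differences of 0.00 and -0.98 passed under neither cytokine (adjusted p = 0.992 and 0.0576). Ankrd12 and Klf6 gave 1.29 and 1.27, with differences of -1.08 and -1.16 under IFN-γ. Mmp12 gave -1.14 and Col1a1 -0.81; Col1a1 averaged 0.84 TPM in IFN-γ non-phagocytic libraries. Csf1r, Adgre1 and Ftl1 gave -0.38, -0.34 and -0.16.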

How the results depend on the processing

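In limma, 139 genes named here were refitted under the alternatives. None of the 121 called among them changed direction where tested. Under all alternatives that tested them, other than a minimum change of 1 log2 unit, 84 kept their call. Genes that missed the level filter under an alternative were not judged there. Both counts include Igkv16-104 (tested under 16 of 22 alternatives) and Igkv15-103, Ighv7-1 and Ighv1-39 (15 of 22 each). Vcam1 was tested under 20. The 1551 calls (934 higher, 617 lower) became 555 higher and 1569 lower without scaling. They fell to 636 (492 and 144) with all 28 libraries in 1 model, to 654 (446 and 208) with the Ax647 Treg libraries alone, to 979 (354 lower) with the BV421 ones alone, and to 93 (69 and 24) with a minimum of 1 log2 unit. With 1 library left out, total calls ranged from 1004 to 1389, higher calls from 652 to 852 and lower calls from 352 to 537. The pairing check found no pairing: libraries of the same file number correlated at -0.06 to -0.02 in their deviations from the group means, and 0 of 4 Treg-phagocytic libraries matched their own number best. A replicate block by file number gave 1005 calls (340 lower), and a block by title number 377 (285 and 92). Non-phagocytic libraries 3 and 4 share their title numbers with no Treg-phagocytic library, so they did not inform the group difference under the title block. Against Tconv-phagocytic libraries the 202 calls became 100 with a replicate block by file number and 84 to 192 with 1 library left out; its single genes were not refitted. The 1238 calls of the difference between cytokines ranged from 905 to 1426 with 1 library left out. Depth limits nothing that can be stated, since TPM keeps no totals; genes near 1 TPM are the least certain, and p-values measure the spread between 4 libraries of unstated origin. The scaling factor sets the direction of small differences. The causes of these changes were not tested.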
